A study of Mus musculus with 20 samples.

Results

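Mitochondria carry ribosomes of their own, which translate the few mRNAs that the mitochondrial genome encodes, all of them for subunits of the respiratory chain and the ATP synthase. The proteins of these ribosomes are encoded in the nucleus, translated in the cytosol and imported. A mitochondrial ribosome has a large subunit, which forms peptide bonds and is bound to the inner membrane, and a small subunit, which reads the mRNA. Many of its proteins descend from the bacterial ribosome and others exist only in mitochondria. Their messages were followed in mouse progenitors of dendritic cells, in the dendritic cells themselves, and in progenitors treated with transforming growth factor β1 (TGF-β1).

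The genes were all those whose symbol in the platform annotation begins with Mrpl or Mrps followed by a digit, which gave 76 of the 18194 genes with a probe set of their own. Of these, 47 have an Mrpl and 29 an Mrps symbol. For the counts by subunit, 49 were placed in the large and 27 in the small subunit, since Mrps18a and Mrps30 sit in the large subunit despite their names. The 27 include Mrps36, which kept its symbol but has since been assigned to the 2-oxoglutarate dehydrogenase complex. Mrpl30 and Mrpl53 were measured only on probe sets shared with another gene and are not among the 76. A gene with several probe sets, as 42 of them have, was represented by the one with the highest mean over the 20 arrays.

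RNA came from bone marrow of C57BL/6 mice, with no gene alteration named in the labels, and each group had 2 Affymetrix whole-genome expression arrays. The groups were conventional dendritic cells (cDC), plasmacytoid dendritic cells (pDC), common dendritic cell progenitors isolated from marrow (in vivo CDP), common dendritic cell progenitors amplified in culture (CDP) and multipotent progenitors amplified in culture (MPP). A separate series held CDP at 0, 4, 8, 12 and 24 h of TGF-β1, with the untreated cells at 0 h. No untreated culture of the later hours is among the samples, so the effects of TGF-β1 and of hours in culture cannot be told apart. A one-cycle kit labelled 1 µg of RNA from cDC, pDC, CDP and MPP. A 3′ IVT Express kit labelled 50 ng from in vivo CDP, extracted with a micro-scale kit, and 250 ng from the TGF-β1 cultures. No source used here states the TGF-β1 dose, how many mice were used or whether the 2 arrays of a group stem from separate cultures or animals. The p-values therefore measure only the spread between these arrays, which may be technical.

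The labelled identities were checked against markers. All 12 cDC markers lay above a log2 value of 5 on both cDC arrays, all 8 pDC markers on both pDC arrays and all 5 MPP markers on both MPP arrays. Several lists also read above 5 elsewhere. The pDC markers did so for 6 and 8 of 8 on the cDC arrays, and the cDC markers for 6 of 12 on both pDC arrays. The 5 CDP markers lay above 5 on all of these arrays and did not set CDP apart, with summed log2 levels of 15.62 and 15.86 in cDC and 15.05 and 15.33 in pDC, against 14.48 and 14.08 in CDP. Kit, an MPP marker, averaged 11.10 in cDC, against 9.71 in MPP and 5.03 in CDP. On the 5 T and NK cell and 3 erythroid markers the one-cycle arrays stayed below 5, except for 1 T and NK cell marker on 1 pDC array. On each TGF-β1 array 3 or 4 of the 5 and 1 of the 3 lay above 5, as did 54.4% to 56.0% of all probe sets. A value above 5 is thus a weaker mark of expression on those arrays, where it also decided which genes were tested. Values are deposited log2 GCRMA intensities. The 10 arrays of cDC, pDC, in vivo CDP, CDP and MPP share 1 floor value, at which 33.7% to 35.5% of their probe sets lie, and the TGF-β1 arrays have no such floor, so levels are compared only within each of these sets. The exception is an alternative run of in vivo CDP against 0 h after quantile normalization. On 3 arrays, replicate 1 of 4, 12 and 24 h, the Gapdh control probes at the 5′ end read 2.09 to 2.78 log2 units below those at the 3′ end, against at most 0.10 on the other TGF-β1 arrays. The 5′ actin control probes read 1.23 to 2.11 below the 3′ ones on the CDP and MPP arrays, against 0.69 to 0.94 on the cDC and pDC arrays. For Gapdh this difference was -0.21 to 0.30 on those 8 arrays. The part of the actin difference in the values of the members was not tested.

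The members lie scattered over 16 chromosomes, with at most 10 on any of them (chromosome 11). Many have a close neighbour that is read in the opposite direction from an adjoining start. Of 67 members with a promoter window in RefSeq (GRCm38.p6), 25 had such a head-to-head neighbour within 1000 bp (37.3%), against 21.4% of the 7329 genes tested here that have a window and 12.3% of all 27025 genes with one. The closest pair of members is Mrpl46 and Mrps11, whose starts are 42 bp apart. Mrpl43 adjoins Twnk, the helicase that unwinds mitochondrial DNA, and Mrps27 adjoins Ptcd2.

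Short motifs were searched on both strands of these windows, which run from 250 bases before to 50 after the start. The ETS motif bound by GABP (NRF2), a known activator of nuclear genes for mitochondria, was CCGGAAG and stood in 37.3% of member windows, against 22.9% of tested genes and 9.93% of all genes. The YY1 motif AAGATGG stood in 19.4%, against 9.14% and 7.28%, and the NRF1 motif, GCGC and TGCGC with 1 base of any kind between them, in 17.9%, against 13.1% and 5.19%. The E-box CACGTG, to which MYC binds, stood in 7.46%, against 12.7% and 8.09%. The ETS and YY1 motifs can share the letters AAG where they adjoin. Of the 67 windows 24 (35.8%) held none of the 4 motifs. Cytosolic ribosomal proteins, of which 37 had a window, held the ETS motif in 48.6% and the NRF1 motif in 13.5%.

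Stretches before the start are printed for Mrpl43, as an example with 2 motifs, and for members whose values follow, 5′ to 3′ on the strand of the named gene, with motif matches in capitals. For the head-to-head genes the bases between both starts are shown, and for the others the 100 bases before the start, all from RefSeq on GRCm38.p6. They are, in order, chr7:78783090-78783130 (minus strand), chr19:45006443-45006557 (minus), chr13:99344679-99344785 (plus), chr9:98601680-98601779 (minus), chr11:120484537-120484636 (plus), chr14:54426809-54426908 (plus) and chr3:95871515-95871614 (minus).
Mrpl46 to Mrps11: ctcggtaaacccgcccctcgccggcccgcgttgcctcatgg
Mrpl43 to Twnk: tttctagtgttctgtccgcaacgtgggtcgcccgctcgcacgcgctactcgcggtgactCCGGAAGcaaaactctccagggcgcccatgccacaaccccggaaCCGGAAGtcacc
Mrps27 to Ptcd2: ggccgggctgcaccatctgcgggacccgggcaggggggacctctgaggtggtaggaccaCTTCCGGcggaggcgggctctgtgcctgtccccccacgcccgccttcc
Mrps22: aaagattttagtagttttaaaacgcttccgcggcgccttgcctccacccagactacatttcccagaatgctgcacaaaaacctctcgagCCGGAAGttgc
Mrpl12: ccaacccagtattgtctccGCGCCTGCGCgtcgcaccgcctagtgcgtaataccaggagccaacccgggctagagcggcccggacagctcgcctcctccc
Mrpl52: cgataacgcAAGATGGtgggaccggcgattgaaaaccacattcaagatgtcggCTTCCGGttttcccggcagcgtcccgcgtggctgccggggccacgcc
Mrps21: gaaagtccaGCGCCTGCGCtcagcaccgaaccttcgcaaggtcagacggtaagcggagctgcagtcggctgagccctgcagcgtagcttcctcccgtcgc
The ETS motif of Mrps22 begins 11 bases before its start and that of Mrps27 begins 48 bases before, and Mrpl43 has 2 such motifs, 56 and 12 bases before. Mrpl12, the protein of the ribosomal stalk, and Mrps21 each have 1 NRF1 motif, beginning 81 and 91 bases before the start. Mrpl52 has a YY1 and an ETS motif, while the 41 bases between Mrpl46 and Mrps11 hold none of the 4. Outside the printed bases, the windows of Mrps11 and Mrps27 also held a YY1 motif and that of Mrps21 an ETS motif. A match is a run of letters and no measured site.

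Members were well expressed in every population. Every member lay above 5 on every array of the series except Mrps27, which fell below it on both pDC arrays. Their median was 8.96 and 8.88 on the cDC arrays, 9.02 and 8.87 on the pDC arrays, 9.67 and 9.56 on the in vivo CDP arrays, 9.71 and 9.83 on the CDP arrays and 9.79 and 9.97 on the MPP arrays. The dendritic cell arrays were thus lowest and did not overlap the others. Levels of different genes come from different probe sets and are not set against each other.

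**Figure D1:**
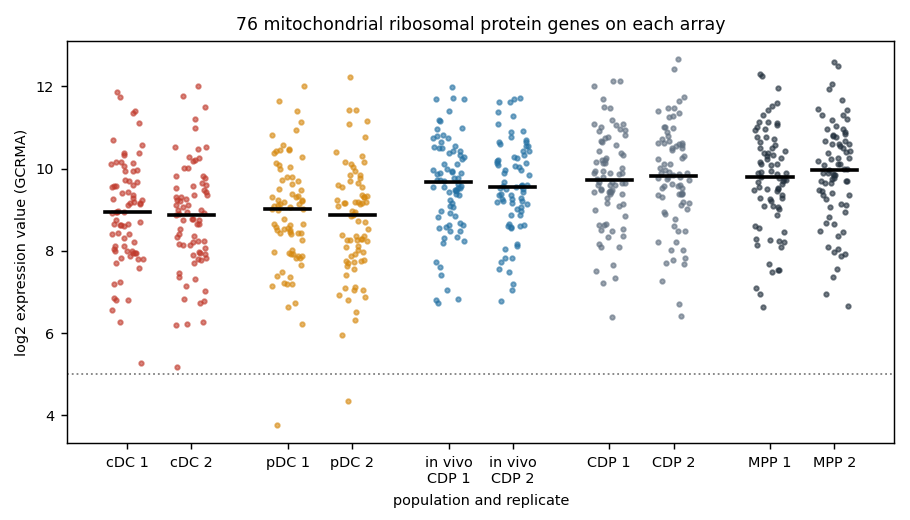
Log2 expression values of the 76 members (dots) on each of the 10 arrays of cDC, pDC, in vivo CDP, CDP and MPP, with the median of an array as a bar and the value of 5 dotted. The 4 dendritic cell medians lie between 8.87 and 9.02, below the other 6, and Mrps27 is the dot below the dotted line in pDC.

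Most members were lower in cDC than in CDP and none was higher past the threshold. The median difference was -0.90 over the 76 members and -0.16 over all 8901 genes tested. By limma, 55 members had an adjusted p under 0.05 and a lower value in cDC, against 29.3% of all genes lower and 18.7% higher. Of the 55 members, 30 fell by at least 2-fold, and the share of all genes that did so was not counted. Without cDC replicate 2 fewer members were called. The signs of the 55 could not turn, since their cDC and CDP arrays did not overlap. Both cDC arrays lay below both CDP arrays for 70 members, as they did for 44.8% of all genes. In these bulk samples, fewer cells of a type and less RNA per cell cannot be told apart.

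The same held in pDC. Against CDP the median difference of the members was -0.87, with -0.14 over all genes, and 55 members were lower and none higher by limma, against 31.6% and 21.7% of all genes. Of the 55, 33 fell by at least 2-fold, again with no share of all genes counted. Without pDC replicate 2 fewer members were called. Both pDC arrays lay below both CDP arrays for 68 members, as for 44.8% of all genes. The comparisons of cDC and of pDC share the CDP arrays. In both, 49 members were lower, with 6 more in cDC alone (Mrpl23, Mrpl37, Mrpl55, Mrps6, Mrps16 and Mrps33), 6 more in pDC alone (Mrpl17, Mrpl48, Mrpl50, Mrps15, Mrps25 and Mrps36) and 15 in neither, where "alone" refers to passing the threshold and not to a tested difference.

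**Figure D2:**
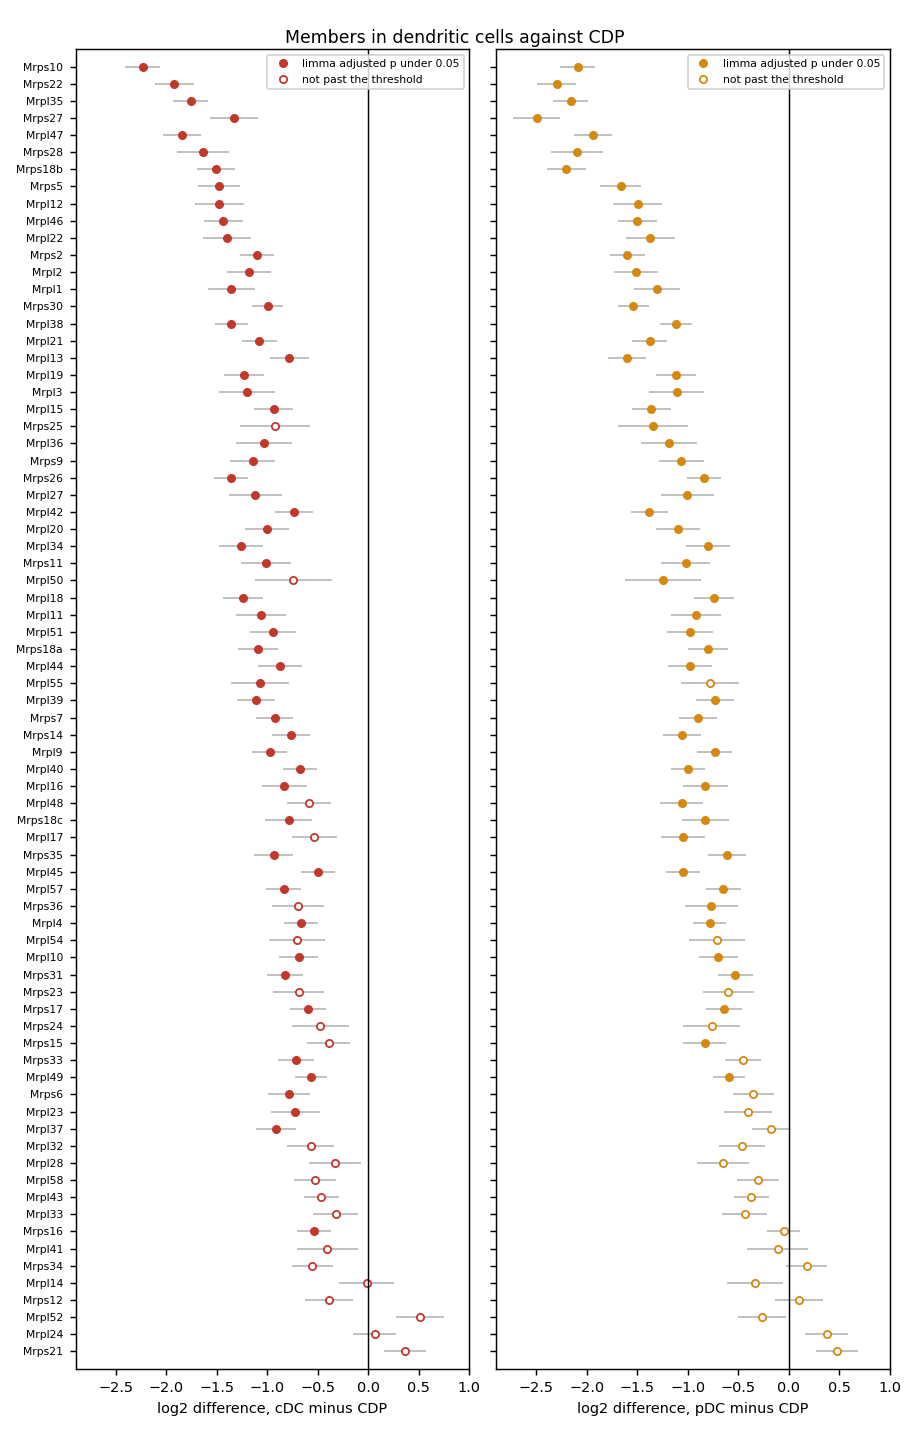
Log2 difference of each member in cDC minus CDP (left) and pDC minus CDP (right), with limma's SE as bars, ordered by the mean of both. Filled dots passed adjusted p under 0.05, and all 55 of them in each panel lie left of 0, from Mrps10 at the top to the few at the foot (Mrpl52, Mrpl24, Mrps21) that do not.

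The largest fall in cDC was that of Mrps10, a small subunit protein with a bacterial homologue. It measured 8.43 and 8.18 in cDC and 8.53 and 8.36 in pDC, against 10.57 and 10.5 in CDP. All 4 dendritic cell arrays lay far below CDP, and the difference was -2.23 ± 0.18 in cDC (SE, limma adjusted p = 0.000191) and -2.09 ± 0.18 in pDC (adjusted p = 0.000152).

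Mrps22, a small subunit protein found only in mitochondria and known in humans for mutations that impair the respiratory chain, measured 8.96 and 8.65 in cDC and 8.55 and 8.30 in pDC, against 10.82 and 10.62 in CDP. Again no dendritic cell array reached a CDP array. By limma the falls were -1.92 ± 0.19 in cDC (adjusted p = 0.000453) and -2.30 ± 0.19 in pDC (adjusted p = 0.000152), or 3.79-fold and 4.91-fold.

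Mrps27, an RNA-binding protein of the small subunit without a bacterial counterpart, had low values throughout. It measured 5.28 and 5.19 in cDC and 3.76 and 4.36 in pDC, against 6.41 and 6.72 in CDP. The 3 populations did not overlap. In cDC it fell by 1.33 ± 0.23 (limma adjusted p = 0.00404), and in pDC, where both arrays were under 5, it was at least 2.95-fold lower (adjusted p = 0.000239 for the full difference).

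Mrps18b is one of the Mrps18 paralogues, of which Mrps18a sits in the large subunit. Its values were 8.05 and 7.77 in cDC and 7.38 and 7.05 in pDC, against 9.46 and 9.38 in CDP. The pDC arrays were the lowest, with falls of -1.51 ± 0.19 in cDC and -2.20 ± 0.19 in pDC (limma adjusted p = 0.00114 and 0.000177).

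Of the large subunit, Mrpl35 fell most in pDC and Mrpl47 most in cDC. Mrpl35 measured 8.70 and 8.78 in cDC and 8.44 and 8.24 in pDC, against 10.39 and 10.61 in CDP. Mrpl47, whose bacterial homologue lies near the exit of the peptide tunnel, measured 7.79 and 7.80 in cDC and 7.65 and 7.76 in pDC, against 9.5 and 9.78 in CDP. For both genes the dendritic cell arrays lay below CDP with no overlap, and the differences were -1.76 and -2.16 for Mrpl35 and -1.85 and -1.93 for Mrpl47 in cDC and pDC (SE 0.18 and 0.19, limma adjusted p from 0.000138 to 0.000493).

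Further large falls in both cell types were those of Mrps28 (-1.64 in cDC and -2.10 in pDC) and Mrps5 (-1.48 and -1.67), both of the small subunit, and of the stalk protein Mrpl12 (-1.48 and -1.50), all with limma adjusted p of at most 0.00291. Mrpl12 measured 9.42 and 8.95 in cDC and 9.14 and 9.19 in pDC, against 10.64 and 10.67 in CDP. Mrpl2, which lies at the peptide-bond centre, fell by 1.18 in cDC and by 1.51 in pDC, and Mrps2 fell by 1.10 and by 1.60. Mrpl3, next to the same centre, fell by 1.20 and by 1.11. Mrps16, a small subunit protein with a bacterial homologue, was lower in cDC (-0.54, limma adjusted p = 0.0326) and stood at -0.05 in pDC. Mrps36, since assigned to the 2-oxoglutarate dehydrogenase complex, stood at -0.70 in cDC without passing and was lower in pDC (-0.77, limma adjusted p = 0.0419).

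The pair Mrpl46 and Mrps11, divided by the 41 bases printed above, fell together. Mrpl46, of the large subunit, measured 7.94 and 7.93 in cDC and 7.95 and 7.79 in pDC, against 9.17 and 9.57 in CDP. Mrps11, of the small subunit, measured 7.25 and 6.84 in cDC and 7.20 and 6.88 in pDC, against 8.11 and 8.01 in CDP. Neither gene overlapped between dendritic cells and CDP. The falls were -1.43 and -1.50 for Mrpl46 and -1.01 and -1.02 for Mrps11, with limma adjusted p of at most 0.0138.

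The fall covered both subunits and both origins. In cDC 36 of 49 large and 19 of 27 small subunit members were lower, with medians of -0.91 and -0.83, and in pDC the counts were again 36 and 19, with medians of -0.98 and -0.83. Of 47 members with a bacterial homologue 37 were lower in cDC and 35 in pDC (medians -1.01 and -0.92), and of 27 that exist only in mitochondria 17 and 19 (medians -0.74 and -0.84). All 3 proteins of the stalk were lower in both cell types. Of 13 members in which human mutations are known to impair the respiratory chain, 9 were lower in each.

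Members were also set apart by promoter. In cDC the median difference was -0.84 over the 25 members with an ETS motif and -0.90 over the 42 without, and in pDC it was -0.80 and -0.95. Members with a head-to-head neighbour had a median of -0.94 in cDC and -0.90 in pDC, against -0.81 and -0.83 over the other 42. The 12 members with an NRF1 motif had a median of -0.86 in cDC and -0.79 in pDC, against -0.91 and -0.90 over the 55 without. At 24 h against 0 h of TGF-β1 the groups lay further apart for NRF1, with medians of -0.119 over the 12 and -0.715 over the 55. For YY1 they were -0.974 over 13 members with the motif and -0.637 over 54 without, and for ETS -0.632 and -0.696. With and without a head-to-head neighbour they were -0.815 and -0.6. These are descriptions with no test.

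A few members ran the other way without passing the threshold on the probe set used. Mrps21, a small subunit protein with a bacterial homologue, measured 10.15 and 9.82 in cDC and 10.15 and 10.05 in pDC, against 9.67 and 9.58 in CDP. All 4 dendritic cell arrays were higher, yet the differences of 0.36 and 0.47 did not pass (limma adjusted p = 0.196 and 0.0943). Mrpl52, of the large subunit, measured 11.74 and 12.01 in cDC and 11.14 and 11.08 in pDC, against 11.08 and 11.66 in CDP. Its difference in cDC was 0.51 (limma adjusted p = 0.12), whereas 2 of its other probe sets, at 1.01 and 1.16, were called higher in cDC by the same fit over probe sets. With the mean of all probe sets of a gene, Mrpl52 was called higher in cDC (0.81, limma adjusted p = 0.00498) and Mrps21 higher in pDC (0.71, adjusted p = 0.0172). Mrps12, the decoding-site protein, differed by -0.39 in cDC and 0.10 in pDC and passed in neither.

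Cytosolic ribosomal proteins did not follow. Of 41 tested, 1 was lower (Rpl14) and 1 higher (Rpl37) in cDC, and 3 were lower (Rpl14, Rpl22 and Rpl41) and 1 higher (Rps27) in pDC, with medians of 0.10 and 0.00. Their median level over the 8 one-cycle arrays was 14.54, against a highest value of 16.29 for any probe set there.

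Other genes of the mitochondrial translation system were mostly lower too. All 4 tested mitochondrial ribosomal proteins with other symbols fell in both cell types, led by Ptcd3 (-1.44 in cDC and -1.69 in pDC) and followed by Dap3 (-1.28 and -1.50), Chchd1 and Gadd45gip1. Of 11 translation factors 7 were lower in each, with Tufm, the elongation factor that delivers tRNAs, at -1.82 and -1.98. Of 16 mitochondrial tRNA synthetases and related enzymes 11 were lower in cDC and 8 in pDC. Nars2 led in cDC, where it was at least 4.14-fold lower (limma adjusted p = 0.000254), and Yars2 led in pDC at -1.94, while Wars2 and Hars2 were higher in pDC, by 1.47 and 0.58 (limma adjusted p = 0.00737 and 0.0261), and were not called in cDC.

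Of 19 assembly factors 10 were lower in cDC, led by Trmt61b (-1.54), and 9 in pDC, led by the GTPase Noa1 (-1.98), with Mterf3 higher in pDC by 0.57. Genes for mitochondrial DNA and its transcription were lower for 10 of 18 in cDC, led by the RNA-binding protein Lrpprc (-1.48), and for 8 of 18 in pDC, led by the DNA polymerase Polg (-2.26), with Mterf2 higher in pDC by 1.13. Of 18 genes for import, chaperones and membranes 17 were lower in cDC and 16 in pDC. Hspa9, the mitochondrial Hsp70, fell most in cDC (-2.59 ± 0.17, limma adjusted p = 0.000116), and Hspd1, its folding partner chaperonin, fell most in pDC (-2.42 ± 0.24, adjusted p = 0.000315).

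**Figure D3:**
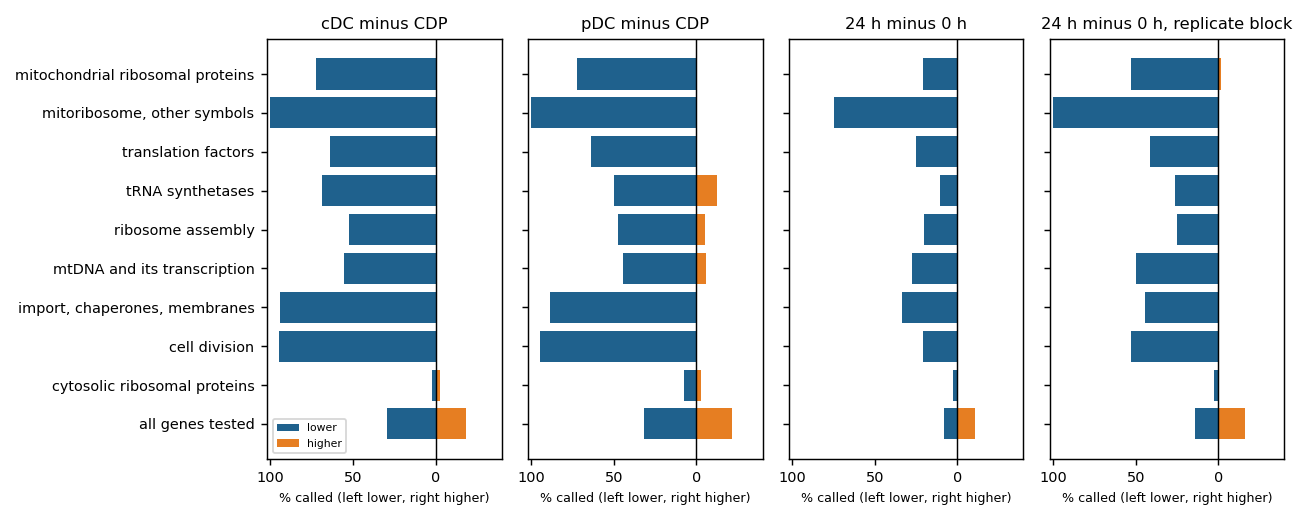
Percent of tested genes in each list that were called lower (left of 0) or higher (right of 0) by limma, in cDC and pDC against CDP and at 24 h against 0 h of TGF-β1, without and with the replicate number as a block. Of the members 72.4% were lower in each dendritic cell type, against 29.3% and 31.6% of all genes and 2.44% and 7.32% of cytosolic ribosomal proteins.

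Proliferation genes and granulocyte markers moved with the members. Of 19 genes of DNA replication and mitosis 18 were lower in cDC and 18 in pDC, with medians of -1.43 and -2.27. Of 8 granulocyte markers 5 were lower in each, with 1 of 8 above 5 on each dendritic cell array and 5 of 8 on each CDP array. The log2 of their summed level was 7.84 to 7.89 in cDC and 7.72 to 7.99 in pDC, against 14.22 to 14.84 in CDP. Their part in the fall of the members was not tested.

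Regulators of mitochondrial biogenesis were mixed. Gabpa and Gabpb1, the subunits of GABP, were lower in cDC by 0.59 and 1.67 (limma adjusted p = 0.024 and 0.00123). In pDC Gabpa was lower by the same 0.59 and Gabpb1 was at least 3.37-fold lower (limma adjusted p = 0.0209 and 0.000594). Of the coactivators, Ppargc1b was at least 2.71-fold lower in cDC and lower by 1.85 in pDC, and Pprc1 was lower by 0.67 and by 1.71. Nrf1 (-0.20 and -0.31), Yy1 (-0.10 and -0.20), Esrra (0.74 and -0.05) and Max (0.15 and 0.74) did not pass. Ppargc1a did not pass the filter.

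Myc, which encodes a transcription factor for growth and ribosome production, went opposite ways. It averaged 9.32 ± 0.26 in cDC and 3.43 ± 0.01 in pDC, against 8.11 ± 0.40 in CDP (SD, n = 2 each). It was thus higher in cDC by 1.22 (limma adjusted p = 0.0183) and at least 8.62-fold lower in pDC (adjusted p = 7.12e-05), while the members were lower in both.

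Between cDC and pDC themselves, few members differed. The median difference, cDC minus pDC, was 0.02, and 5 members were higher and 2 lower in cDC by limma, against 12.8% and 12.7% of all genes. Higher in cDC were Mrps27 (at least 1.17-fold against the value of 5), Mrpl13 (0.82), Mrps18b (0.69), Mrpl42 (0.64) and Mrps30 (0.54), each of which was lower than CDP in both cell types. Mrpl13, of the large subunit, measured 10.37 and 10.02 in cDC, against 9.52 and 9.23 in pDC, with no overlap. With any 1 cDC or pDC array left out, 1 or 2 members were called.

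Lower in cDC than in pDC were Mrpl37 (-0.74) and Mrps34 (-0.73), both found only in mitochondria. Mrpl37 measured 6.57 and 6.23 in cDC, against 7.23 and 7.06 in pDC, where it lay close to the CDP values of 7.35 and 7.28. Mrps34, which is mutated in a human Leigh syndrome, measured 9.67 and 9.32 in cDC, against 10.29 and 10.16 in pDC. In both genes cDC was lower on both arrays.

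CDP and MPP did not differ past the threshold in any member. By limma 0 of 76 members were called, against 3.99% of all genes higher and 3.52% lower. An unadjusted p under 0.05 was found for 1, and the share of all genes under it was not counted. The median difference, CDP minus MPP, was -0.06. Mrps10, for example, measured 10.57 and 10.5 in CDP, against 10.10 and 10.26 in MPP, and Mrpl12 measured 10.64 and 10.67 in CDP, against 10.44 and 10.96 in MPP. Differences ranged from -0.70 to 0.56. No call was made in the related lists of mitochondrial translation either, while Myc differed by -2.63 (lower in CDP, limma adjusted p = 0.00365) and all 8 granulocyte markers were lower. The other 8 regulators tested did not pass, with differences of -0.71 to 0.45.

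In vivo CDP differed from CDP in both directions. The median difference was -0.27, with 0.10 over the 9122 genes tested, and 25 members were lower and 9 higher by limma, against 19.5% and 27.6% of all genes. This comparison also crosses labelling kit, RNA amount and extraction kit, which cannot be told apart from the source of the cells. CDP at 0 h of the TGF-β1 series were labelled with the same kit as in vivo CDP. Against them, after quantile normalization, 9 of the 34 called members stayed called in the same direction and 8 turned sign. Leaving out CDP replicate 2, in vivo replicate 1 or in vivo replicate 2 left 18, 21 or 19 members called. The Gapdh 3′ minus 5′ difference was 0.98 and 0.47 on the in vivo arrays, against -0.15 and 0.19 on the CDP arrays, and its part was not tested.

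The lower members were led by Mrps22, with 9.08 and 9.19 on the in vivo arrays, against 10.82 and 10.62 on the CDP arrays. The arrays did not overlap, and the difference was -1.59 ± 0.18 (limma adjusted p = 0.000357). Mrps18b (-1.22), Mrps10 (-1.20), Mrps9, Mrpl3 and Mrpl39 (each -1.12), Mrpl47 (-1.04) and Mrpl52 (-1.01) followed. For Mrps9 and Mrpl52 the probe sets of the gene were called in opposite directions in this comparison, so their direction is uncertain. With the mean of all probe sets of a gene, 22 of the 34 called members stayed called, and Mrpl51 and Mrpl52 turned sign. Of the 27 members that exist only in mitochondria 14 were lower and 2 higher, and of the 47 with a bacterial homologue 11 were lower and 7 higher.

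The higher members were led by Mrps12, which helps to read the codon, with 9.77 and 9.52 on the in vivo arrays, against 8.47 and 8.02 on the CDP arrays. The difference was 1.40 ± 0.23 (limma adjusted p = 0.00175). Mrpl4 measured 9.90 and 9.57 on the in vivo arrays, against 8.64 and 8.49 on the CDP arrays. Mrpl23, at the exit of the peptide tunnel, measured 11.17 and 11.28 in vivo, against 10.34 and 9.81 in CDP. All 3 genes had both in vivo arrays above both CDP arrays. Mrpl28, Mrps24, Mrpl54, Mrpl37, Mrps21 and Mrpl34 were higher by 0.64 to 0.95.

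**Figure D4:**
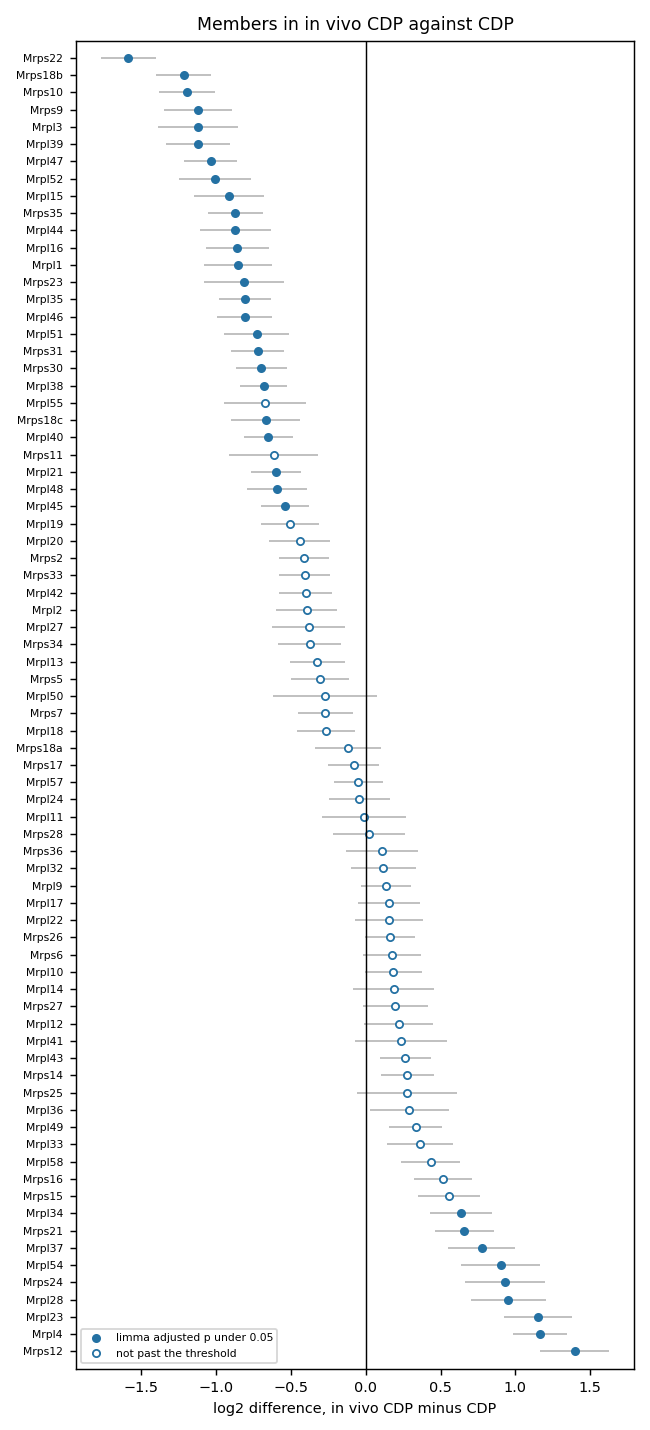
Log2 difference of each member, in vivo CDP minus CDP, with limma's SE as bars, ordered by size. Filled dots passed adjusted p under 0.05, of which 25 lie left of 0, with Mrps22 at the top (-1.59), and 9 right of it, with Mrps12 at the foot (1.40).

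Related genes were split as well. Of the ribosomal proteins with other symbols Gadd45gip1 was higher by 1.34 and Ptcd3 and Chchd1 lower by 1.09 and 0.62. Of 17 tRNA synthetases 7 were lower, led by Nars2 (-2.06), and Cars2 was higher by 1.20. Of 11 translation factors Guf1, Gfm2 and Gfm1 were lower by 1.18, 1.04 and 1.05, and Tsfm was higher by 1.11. Hspa9 (-1.68) and Tomm70a (-1.91) led the 8 lower genes for import and chaperones, while Timm50 was higher by 1.35. Among the regulators Myc was higher by 2.01, Nrf1 by 1.23 and Gabpb1 by 0.84, while Gabpa (-0.43), Esrra (0.64), Max (0.47), Ppargc1b (-0.50), Pprc1 (-0.18) and Yy1 (-0.18) did not pass. Granulocyte markers above 5 numbered 8 of 8 on the in vivo arrays, against 5 of 8 on the CDP arrays, and 6 of 8 were called higher. Of 5 MPP markers 4 were called higher, and the part of these in the differences of the members was not tested.

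Under TGF-β1 the members were lowest at the last time. Their median was 10.34 and 10.49 at 0 h, 9.92 and 10.42 at 4 h, 10.12 and 10.24 at 8 h, 9.81 and 10.12 at 12 h and 9.58 and 9.92 at 24 h. Both 24 h arrays lay below every 0 h array, and the mean of a member was lowest at 24 h for 55 of the 76 and highest at 0 h for 49. How many of all genes have that order of means was not counted. Replicate 1 at 4, 12 and 24 h is the array with low 5′ control signal, and its member median was the lower one each time, as that of replicate 1 also was at 0 and 8 h.

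At 24 h against 0 h the median difference of the members was -0.70, with 0.00 over the 12656 genes tested. By limma 16 members were lower and none higher, against 8.42% of all genes lower and 10.8% higher. Arrays with the same replicate number deviated together in this series, most of all among 4, 12 and 24 h (correlations of 0.67 to 0.85). Replicate 1 of those times is the array with low 5′ signal, and whether the numbers pair samples was not tested. With the number as a block 40 members were lower and 1, Mrpl52, was higher, against 13.9% and 16.2% of all genes. Both 24 h arrays lay below both 0 h arrays for 58 members, against 30.5% of all genes, and above them for 4, against 32.2%. Without the 3 arrays of low 5′ signal the median difference was -0.50, and 34 members were lower and 1 higher, against 15.2% and 16.7% of all genes. With a single array left out, replicate 1 or 2 of 0 h or replicate 1 of 24 h, most of the 16 were no longer called. Their signs could not turn, since the 24 h and 0 h arrays of these members did not overlap.

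Before 24 h the calls depended on the fit. By limma on all 10 arrays no member was called at 4, 8 or 12 h, where 0.079%, 0.348% and 1.68% of all genes were lower and 0.569%, 1.2% and 3.68% higher. An unadjusted p under 0.05 was found for 3 members at 4 h, 4 at 8 h and 14 at 12 h, against 37 at 24 h. The share of all genes under that unadjusted p was not counted, so whether the members exceed it is not known. With the replicate block 11 members were lower at 12 h, against 4.61% of all genes lower and 7.51% higher. At 4 and 8 h it called 0, where 0.253% and 1.68% of all genes were lower and 0.956% and 2.8% higher. With 1 array left out, the median difference at 4 h ranged from -0.507 to -0.009. The median differences were -0.27 at 4 h, -0.15 at 8 h and -0.39 at 12 h, and without the 3 arrays of low 5′ signal they were -0.01, -0.15 and -0.14. That fit called 0 members at 4 h and 5 lower at 8 h (Mrpl12, Mrpl19, Mrpl47, Mrps6 and Mrps18b, from -0.72 to -0.57), against 4.13% of all genes lower and 5.6% higher. At 12 h it called 5 lower (Mrpl1, Mrpl12, Mrpl19, Mrpl47 and Mrps18b) and Mrpl52 higher by 0.58, against 5.35% of all genes lower and 7.51% higher.

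Over all times, limma's moderated F-test called 4 members, against 9.73% of all genes, and 21 with the replicate block, against 20.4%. Its count moved widely with 1 array left out, where a group rests on a lone array. By limma the 4 were Mrps28 (adjusted p = 0.00702), Mrpl47 (0.0243), Mrps5 (0.0352) and Mrpl19 (0.039). Next in order, without passing, were Mrps10 (0.0686) and Mrpl42 (0.0731).

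Mrps28, of the small subunit, measured 10.41 and 10.66 at 0 h, 10.17 and 10.65 at 4 h, 10.14 and 10.32 at 8 h, 9.62 and 10.03 at 12 h and 8.63 and 8.71 at 24 h. The 24 h arrays lay below all others, and the difference from 0 h was -1.87 ± 0.22 (limma adjusted p = 0.00115).

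Mrps10, the member that fell most in cDC, measured 10.19 and 10.61 at 0 h, 9.61 and 10.42 at 4 h, 9.75 and 9.99 at 8 h, 8.61 and 9.63 at 12 h and 7.77 and 8.71 at 24 h. Replicate 1 was the lower array at each time, and the 24 h difference was -2.17 ± 0.44 (limma adjusted p = 0.0119), or -1.69 ± 0.22 without the arrays of low 5′ signal, where Mrps28 differed by -1.83.

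Mrpl47 measured 10.37 and 10.56 at 0 h, 10.95 and 10.38 at 4 h, 9.82 and 9.89 at 8 h, 9.78 and 9.61 at 12 h and 9.41 and 8.94 at 24 h. Here replicate 1 with low 5′ signal was the higher array at 4, 12 and 24 h. The fall at 24 h was -1.29 ± 0.24 (limma adjusted p = 0.00753), and -1.53 ± 0.16 without those arrays.

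Mrps5 measured 7.56 and 7.95 at 24 h, against 9.11 and 9.22 at 0 h, a difference of -1.41 ± 0.24 (limma adjusted p = 0.00554). Mrpl19, of the large subunit, measured 8.64 and 9.02 at 24 h, against 10.12 and 10.18 at 0 h, a difference of -1.32 ± 0.25 (limma adjusted p = 0.00814). In both genes every array at 24 h lay below every array at 0, 4 and 8 h. Mrps18b (-1.69), Mrpl55 (-1.39), Mrpl42 (-1.36) and Mrps22 (-1.26) completed the larger falls that passed, and Mrps25, Mrpl36, Mrpl35, Mrpl1, Mrps26, Mrpl15 and Mrpl49 were the other members called.

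Mrpl12 had a similar difference without passing. It measured 11.49 and 11.66 at 0 h, 9.64 and 11.44 at 4 h, 10.94 and 11.03 at 8 h, 9.65 and 10.88 at 12 h and 8.84 and 10.03 at 24 h. The replicates at 4, 12 and 24 h lay more than 1 log2 unit apart. The 24 h difference was -2.14 ± 0.64 (limma adjusted p = 0.0515), with an adjusted p of 0.00427 under the replicate block and a difference of -1.55 ± 0.16 (adjusted p = 0.000708) without the arrays of low 5′ signal.

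Mrpl52 ran the other way. It measured 11.38 and 11.37 at 0 h, 12.86 and 11.62 at 4 h, 11.79 and 11.79 at 8 h, 12.57 and 11.96 at 12 h and 13.10 and 12.22 at 24 h. Both 24 h arrays lay above both 0 h arrays. The difference at 24 h was 1.29 ± 0.43 (limma adjusted p = 0.0763), with an adjusted p of 0.0131 under the block and a difference of 0.85 ± 0.15 (adjusted p = 0.00543) without the arrays of low 5′ signal. Mrpl45, which anchors the ribosome to the inner membrane, measured 10.70 and 10.65 at 24 h, against 10.12 and 10.45 at 0 h, and its difference of 0.39 did not pass.

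**Figure D5:**
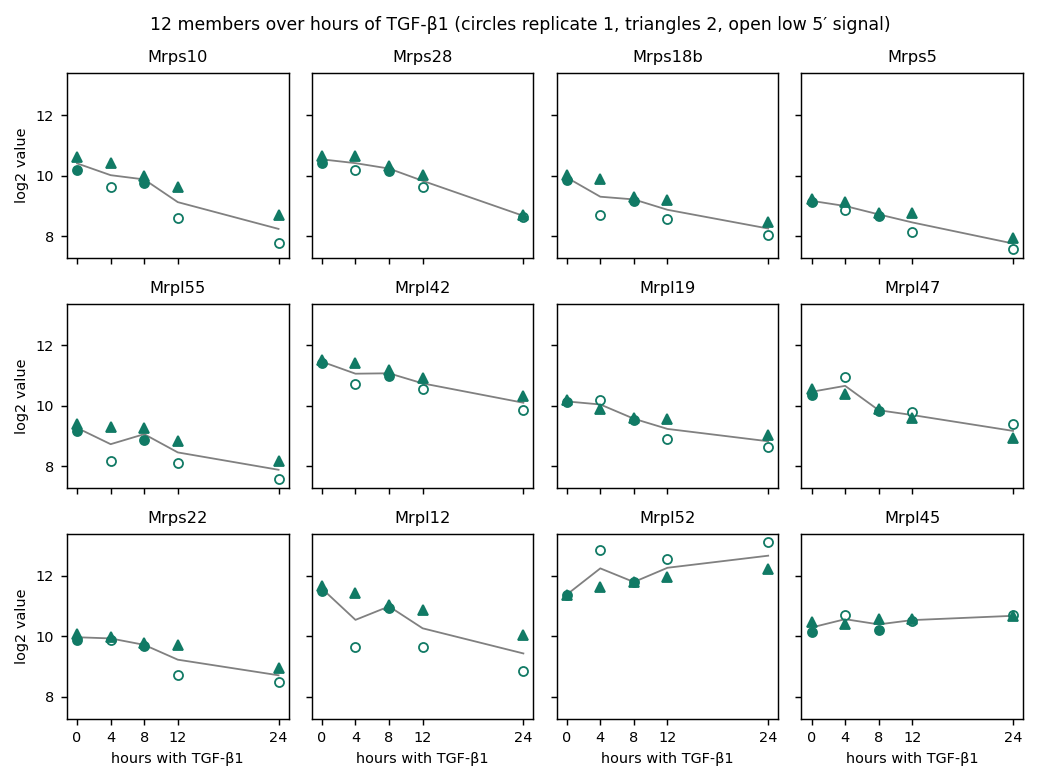
Log2 values of 12 members at 0, 4, 8, 12 and 24 h of TGF-β1, with replicate 1 as circles, replicate 2 as triangles, open symbols for arrays with low 5′ control signal and the mean as a line. All panels but those of Mrpl45 and Mrpl52 have their lowest mean at 24 h, and Mrpl52 goes to 13.10 and 12.22 at 24 h, against 11.38 and 11.37 at 0 h.

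The fall at 24 h again met both subunits, with 9 of 49 large and 7 of 27 small subunit members lower (medians -0.73 and -0.63), or 27 and 13 under the replicate block. Of 41 cytosolic ribosomal proteins 1 was lower, Rpl12 (-1.45), and their median was 0.00. The 4 mitochondrial ribosomal proteins with other symbols had a median of -1.17, with Ptcd3 (-1.31), Dap3 (-1.03) and Chchd1 (-0.88) lower and Gadd45gip1 at -1.45 without passing.

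Of the further lists, 3 of 12 translation factors were lower at 24 h, led by Tsfm (-1.27), and 2 of 19 tRNA synthetases, led by Ears2 (-1.22), beside the 8.42% of all genes lower given above, to which the tRNA synthetases lie close. Assembly factors were lower for 4 of 20, led by the rRNA methyltransferase Mrm3 (-1.46), and genes for mitochondrial DNA and its transcription for 5 of 18. Of those called in the latter list Lrpprc (-1.27) led, while differences in the list went down to -1.50. Of 18 genes for import, chaperones and membranes 6 were lower, led by the import channel Tomm40 (-2.56) and by Hspa9, which averaged 10.10 ± 0.03 at 24 h, against 12.10 ± 0.05 at 0 h (SD, n = 2 each). None of these lists had a member called higher. Under the block the counts were 5, 5, 5, 9 and 8, beside 13.9% of all genes lower.

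Other groups changed beside them. Of 19 genes of replication and mitosis 4 were lower at 24 h and 10 under the block, led by Cdc6 (-1.34). The summed level of cDC markers was 13.22 and 13.64 at 24 h, against 10.79 and 10.41 at 0 h, and that of granulocyte markers was 11.54 and 13.02, against 13.55 and 13.80. Their part in the fall of the members was not tested.

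Among the regulators Myc and Pprc1 fell. Myc averaged 8.22 ± 0.40 at 24 h, against 11.42 ± 0.11 at 0 h (SD, n = 2 each), a difference of -3.20 (limma adjusted p = 0.000824), and it was already lower by 2.21 at 12 h (adjusted p = 0.012). Pprc1 averaged 7.90 ± 0.02 at 24 h, against 9.80 ± 0.10 at 0 h, a difference of -1.90 (limma adjusted p = 0.0017). Nrf1 (-0.48), Gabpb1 (-0.60), Ppargc1b (-0.78), Max (-0.85), Yy1 (-0.23), Gabpa (0.11) and Esrra (0.10) did not pass at 24 h.

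The members lower at 24 h of TGF-β1 were nearly all lower in dendritic cells, in comparisons that share no arrays. Of the 16 lower at 24 h, 15 were lower in cDC and 15 in pDC, which is 93.8% of the 16 and 27.3% of the 55 in each. Of all 76 members, 72.4% were lower in each dendritic cell type. Of the 8765 genes tested in both, 2601 were lower in cDC and 2797 in pDC. Over all genes tested in both, 715 of the 976 lower at 24 h were lower in cDC (73.3%, and 27.5% of those lower in cDC), and 718 in pDC (73.6% and 25.7%).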

How the data were processed

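RNA of 20 samples, 2 arrays for each of 10 groups, was measured on Affymetrix arrays. The deposited log2 values are the authors' GCRMA output, per the submitters' processing notes, which name no version, and were used without further scaling. Of 45101 probe sets, 34958 have 1 gene symbol in the platform annotation and 932 several; those with several were left out. Of several probe sets of a gene, the one highest on average over the 20 arrays was used.

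Differences were fitted with limma 3.58.1 in R 4.3.3, separately for the 8 one-cycle arrays, the 10 arrays that include in vivo CDP and the 10 TGF-β1 arrays. Genes above 5 on at least 2 arrays of a fit were tested, and all 76 members passed. P-values are two-sided, adjusted by Benjamini-Hochberg over all genes tested, with a threshold of 0.05. If a group lay under 5 on both of its arrays, its fold was taken against 5 and is given as "at least", and the p beside it tests the full difference. The scripts were tested on simulated data. The number of arrays limits the precision.

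Replicates with the same number deviated together in the TGF-β1 series (correlations of 0.27 to 0.85 between times), where the replicate number was therefore also fitted as a block. The correlations were 0.67 to 0.85 among 4, 12 and 24 h, whose replicate 1 has low 5′ signal, and 0.27 to 0.54 in pairs with 0 or 8 h. The check cannot tell pairing from that shared signal. On the one-cycle arrays the correlations were 0.58 between MPP and CDP, 0.44 between cDC and pDC and -0.06 to 0.11 between the other groups. Whether the numbers pair samples there is not known. The text names from, per comparison, the 8 largest falls and the 8 largest increases among called members whose arrays do not overlap, called members against the majority, the 6 smallest F-test p-values, and Mrpl2, Mrpl3, Mrpl12, Mrpl45, Mrps2, Mrps12, Mrps16, Mrps27, Mrps30 and Mrps36. Of related lists it names mainly the largest changes, and the regulators tested. Mrpl46, Mrps11, Mrps21, Mrpl52 and the other related genes were named after their values were seen. The members, gene lists and motifs were chosen with earlier results of these data known. Promoters and gene starts are those of RefSeq, GRCm38.p6, read with Python 3.11.15. Mrpl4, Mrpl13, Mrpl15, Mrpl19, Mrpl38, Mrpl54, Mrps28, Mrps34 and Mrps35 had no window. Other filters, scalings, probe set rules, fits and left-out arrays were tried as alternatives.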

Additional observations from a re-analysis of the deposited data

Results flagged for a closer look

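For 7 members the difference from CDP was unequal in cDC and pDC, as tested by limma on cDC minus pDC, among 76 members and against 12.8% of all genes higher and 12.7% lower. Higher in cDC were Mrpl13 (0.819), Mrps18b (0.694), Mrpl42 (0.641) and Mrps30 (0.542). Mrps27 was also called higher (1.169, adjusted p = 0.0113 by limma), but both of its pDC arrays lay under 5, so it is given only as at least 1.17-fold against that value, and the p tests the full difference. Lower in cDC were Mrpl37 (-0.741) and Mrps34 (-0.734). In each the 2 cDC arrays did not overlap the 2 pDC arrays.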

How the results depend on the processing

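The median differences of the members in cDC and pDC stayed below 0 under every alternative run. With the mean of all probe sets of a gene they were -0.699 in cDC and -0.709 in pDC, and Mrpl17 did not pass the filter. Under that rule Mrpl52 was called higher in cDC and at 24 h and Mrps21 in pDC. Of the 34 members called in vivo 22 stayed called. The in vivo differences of Mrpl51 and Mrpl52 turned from -0.729 and -1.009 to 0.163 and 0.048. With 1 array left out, members called ranged from 32 to 45 (median -0.94 to -0.813) in cDC, 35 to 47 (-0.997 to -0.818) in pDC, 1 to 2 (-0.112 to 0.116) in cDC against pDC, 0 to 0 (-0.141 to 0.066) in CDP against MPP and 18 to 26 (-0.328 to -0.203) in in vivo CDP. Without a filter 2 members differed between cDC and pDC. In vivo CDP against 0 h after quantile normalization gave 19 calls and a median of -0.501. Only 9 of the 34 members called against CDP were called there in the same direction, and 8 of the 34 turned sign. For TGF-β1 with 1 array left out the ranges were 0 to 10 (-0.507 to -0.009) at 4 h, 0 to 0 (-0.273 to -0.064) at 8 h, 0 to 0 (-0.755 to -0.145) at 12 h, 1 to 13 (-1.012 to -0.5) at 24 h and 1 to 18 for the F-test. The replicate block gave 11 calls at 12 h, 41 at 24 h and 21 for the F-test. Without the 3 arrays of low 5′ signal there were 5 calls at 8 h, 6 at 12 h, 35 at 24 h and 18 for the F-test, with medians of -0.009 at 4 h and -0.145 at 12 h. Why these moved was not tested. No share of all genes was counted for the fits with 1 array left out, or for the F-test without those 3 arrays. On the one-cycle arrays the replicate block moved no count by over 1.5 times. With 2 arrays a group, a lone remaining array was assumed to vary like the other groups.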
